A study of Mus musculus with 7 samples.

Results

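The genes described here encode the proteins of the cytosolic ribosome and were read in muscle stem cells (MuSCs) of WT and Jag2sm mice. They were taken by symbol: protein-coding genes named Rpl (large subunit) or Rps (small subunit) followed by a digit, a or p, without the Rps6k kinases, predicted copies and retrogenes. The rule found 82 of the 56748 genes counted, 49 of the large and 33 of the small subunit. It also took in Rps19bp1, which encodes a protein that binds a ribosomal protein and is not itself part of the ribosome. The MuSCs came from hindlimb muscles of adult mice, where cells bearing CD31, CD45 or Sca1 were removed and Integrin α7+ cells were kept on magnetic columns. The paper's general method then grows MuSCs in myoblast growth medium. Its sequencing method does not say whether the sequenced cells were cultured. There were 3 WT libraries and 4 libraries from mice homozygous for Jag2sm, a naturally occurring hypomorphic variant of the NOTCH ligand gene Jag2, whose genotype the labels write as Jag2-/-. The labels give no sex, exact age or strain for either group and do not say whether each library is a separate mouse, so the p-values measure only the spread between these libraries. The RNA was read as full-length cDNA on nanopore flow cells, and the libraries held 187834, 1657016 and 1159203 gene counts in WT 1 to 3 and 671660, 1421058, 1937581 and 1223863 in Jag2sm 1 to 4.

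Ribosomal proteins coat the ribosomal RNA, and cells make them in matched amounts because every ribosome needs a full set. Their messages are among the most abundant in growing cells, and most begin with a run of pyrimidines (the TOP motif) through which mTOR signalling controls their translation, while Myc drives transcription of the genes. In the mouse genome these genes have left very many processed copies, which are reverse-transcribed messages without introns that lie elsewhere and in most cases are annotated as pseudogenes.

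Of the 75 members with enough counts to be tested, only Rpsa, a small subunit gene, passed the test between genotypes, and it was higher in Jag2sm. No other tested member passed, where 6.26% of all genes tested did. Most fold changes of these other members lay above 0, where 54% of all genes did. The values of these members ranged from a log2 value of −1.73 for Rpl29 to 0.91 for Rplp0. Their general shift above 0 came largely from 1 library, WT 1. In that library ribosomal protein genes took a far smaller share of all counts than in every other library. Of the reads counted on ribosomal protein genes and their processed copies most lay on the copies, and for Rpsa the sum of gene and copies was not higher in Jag2sm.

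Some libraries stood apart. WT 1 was the shallowest, and 45.1% of its aligned reads fell outside any gene, against 20.8% to 25.7% in the other 6 libraries. In Jag2sm 1, 2 and 4, 50.8%, 46.7% and 46.0% of reads were listed as not aligned, against 2.44% to 3.24% in the other 4. All 8 markers of MuSCs and myoblasts were detected. They summed to 5839, 3417 and 3346 CPM in WT 1 to 3 and to 2165, 2276, 2344 and 2633 CPM in Jag2sm 1 to 4, a sum led by Des, the muscle intermediate filament gene, which was the 1 marker of the list called and fell in Jag2sm; 4 of the 8 had a log2 fold change above 0. Pax7, a transcription factor that marks MuSCs, stood at 28.8, 95.7 and 80.6 CPM (the count scaled to a common library size after TMM normalization) in WT 1 to 3 and 100.4, 129, 172 and 125 in Jag2sm 1 to 4. Of 6 immune markers 4 (Ptprc, Lyz2, Adgre1 and Cd3e) had 0 counts in all 7 libraries, and the list summed to at most 4.08 CPM. The 6 endothelial markers, of which Kdr had 0 counts, summed to 11.5 CPM in WT 1 and 14.1 CPM in Jag2sm 1, led by Tek, and to 2.45 to 6.22 CPM in the other libraries. The 6 fibro-adipogenic markers, led by Cd34 and with Dpt at 0, summed to 0 to 44.9 CPM and the 3 glial markers to 0 to 4.24 CPM. The 3 tenocyte markers, led by Scx, which fell, summed to 115 to 121 CPM in WT and 29.6 to 75.8 CPM in Jag2sm. The summed level of the 5 mural markers, led by Rgs5, was 686 CPM in Jag2sm 1 and 51.9 to 86.4 CPM in the other libraries. Of the 3 mural markers tested, Abcc9 fell in Jag2sm (edgeR adjusted p = 0.0139), while Rgs5 and Notch3 had log2 fold changes above 0 and were not called. The 12 markers of differentiated muscle, led by the actin gene Acta1, summed to 29398, 19377 and 22059 CPM in WT 1 to 3 and to 4106, 2248, 792 and 4847 CPM in Jag2sm 1 to 4. All 10 that were tested fell in Jag2sm, so the cell samples differed in their share of differentiating cells or in the RNA these cells held, which cannot be told apart in bulk RNA. The part of these differences in the ribosomal protein results was not tested. Jag2 itself stood at 80.7, 114 and 116 CPM in WT and at 42.4, 78.8, 71.9 and 77.4 CPM in Jag2sm (log2 fold change −0.64 ± 0.243 (SE), adjusted p = 0.166 in edgeR), and since Jag2sm changes the protein, this level does not check the genotype.

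The pairs of sequences printed next show how close a ribosomal protein message lies to its processed copy, and they are printed because the counts of these pairs carry the results below. Each line holds 120 bases of coding sequence from GENCODE transcripts on GRCm39, 5′ to 3′ on the coding strand, with the bases at which gene and copy differ in capitals. Among stretches of that length the one with the most differences, and then the most exon junctions, was taken. Positions count from 1 at the first base of the start codon. Rpsa (chr9:119956755-119962787, + strand) has 6 coding exons, and Rpsa-ps10 (chr3:149778295-149779179, − strand) has 1 exon and differs at 6 of 885 coding bases (C25A, T210C, C219T, C345G, C696T and G858A, with the base of the gene first).
Rpsa, coding bases 100 to 219: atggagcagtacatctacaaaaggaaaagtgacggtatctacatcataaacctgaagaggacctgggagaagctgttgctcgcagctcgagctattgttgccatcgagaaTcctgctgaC
Rpsa-ps10, chr3:149778961-149779080: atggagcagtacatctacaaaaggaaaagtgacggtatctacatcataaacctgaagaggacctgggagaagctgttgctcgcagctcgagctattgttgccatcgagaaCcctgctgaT
Rplp0 (chr5:115694515-115701793, + strand) also has 6 coding exons, and its copy Gm8730 (chr8:103591477-103592430, − strand) differs at 12 of 951 bases, 4 of them in the stretch shown (A390G, A393G, A447T and G502A).
Rplp0, coding bases 383 to 502: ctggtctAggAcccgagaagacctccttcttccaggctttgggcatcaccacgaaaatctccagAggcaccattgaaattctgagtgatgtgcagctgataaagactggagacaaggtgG
Gm8730, chr8:103591929-103592048: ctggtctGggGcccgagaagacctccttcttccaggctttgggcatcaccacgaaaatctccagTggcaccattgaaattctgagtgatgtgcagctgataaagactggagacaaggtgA
Rpl29 (chr9:106306586-106311297, + strand) has 3 coding exons, and Gm8210 (chr1:43228316-43228798, + strand) differs at 3 of 480 bases (C72A, C300T and T423C).
Rpl29, coding bases 1 to 120: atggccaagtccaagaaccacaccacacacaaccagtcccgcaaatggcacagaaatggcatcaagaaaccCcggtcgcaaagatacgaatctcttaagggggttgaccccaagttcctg
Gm8210, chr1:43228316-43228435: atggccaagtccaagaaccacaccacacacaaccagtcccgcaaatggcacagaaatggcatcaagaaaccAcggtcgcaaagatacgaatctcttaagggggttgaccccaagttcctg
Rpl35 (chr2:38891591-38895637, − strand) has 4 coding exons, and the retrogene Rpl35rt (chr1:156193610-156194054, + strand) differs from it at 1 of 369 coding bases (C117T).
Rpl35, coding bases 104 to 223: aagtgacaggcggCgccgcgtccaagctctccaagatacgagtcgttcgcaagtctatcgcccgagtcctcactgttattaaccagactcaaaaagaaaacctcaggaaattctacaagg
Rpl35rt, chr1:156193751-156193870: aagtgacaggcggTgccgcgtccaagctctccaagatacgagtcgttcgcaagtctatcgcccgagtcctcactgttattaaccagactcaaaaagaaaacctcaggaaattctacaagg

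The members differed widely in how their counts divided between gene and copies. A copy was taken as an annotated pseudogene, retrogene or predicted gene whose transcript matched a member's transcript, and 1909 such copies were found, of which 588 had at least 1 count. Over the 7 libraries the 82 members held 213336 counts and their copies 399514, so the copies held 65.2% of the sum. In each library alone this share lay between 64.1% and 66.7%, and the groups overlapped. The copies held over 50% of the counts of 52 members, over 90% for 37, and under 10% for 19. The median member had 515.5 counts alone and 7454 with its copies. Rpl35 had 3 counts in all libraries together, while Rpl35rt had 14508, and Rps27 had 92 counts beside its retrogene Rps27rt with a level of 288, 1019 and 1258 CPM in WT 1 to 3 and 795, 1028, 841 and 1107 CPM in Jag2sm 1 to 4. At the other end Rps20 had 16452 counts and its copies 74, Rpl4 had 15447 and its copies 13, and no counted copy was found for Rpl8, with 13973 counts. Whether reads counted on a copy came from the copy or from the gene was not tested. Of the 82 members 61 also overlapped an exon of another annotated gene, 48 of them on the opposite strand, for which the strand setting of the counting is not given in the sources used here.

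**Figure D1:**
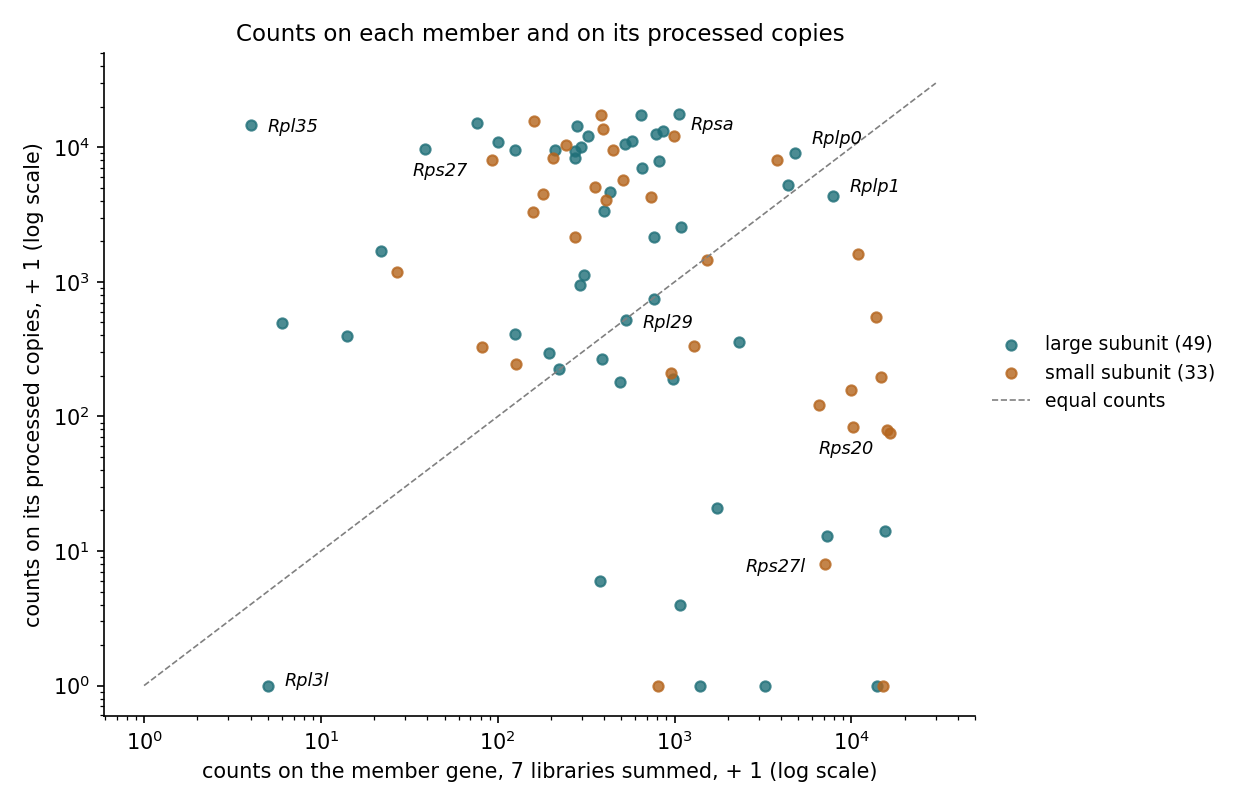
Counts on each of the 82 members (x axis, 7 libraries summed, plus 1, log scale) against counts on its processed copies (y axis, plus 1, log scale), colored by subunit. Points above the dashed line are members with more counts on copies than on the gene; Rpl35 with 3 counts lies farthest to the left, and Rps20 with 16452 farthest to the right.

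As a share of all gene counts, the members took 1.02%, 2.37% and 2.40% in WT 1 to 3 and 2.92%, 2.77%, 2.56% and 2.93% in Jag2sm 1 to 4. All 4 Jag2sm libraries lay above the 3 WT libraries, and WT 1 lay far below the other 2. The means were 1.93% ± 0.787 (SD, n = 3) in WT and 2.79% ± 0.172 (SD, n = 4) in Jag2sm, and without WT 1 the WT mean was 2.38%. Both subunits had this order: large subunit genes took 0.447%, 0.834% and 0.844% in WT and 1.07%, 1.01%, 1.00% and 1.09% in Jag2sm, and small subunit genes 0.572%, 1.53% and 1.55% in WT and 1.84%, 1.75%, 1.56% and 1.85% in Jag2sm. The labels give each library a batch number equal to its replicate number, and the share in Jag2sm was 2.86 times that of WT in batch 1, 1.17 times in batch 2 and 1.07 times in batch 3. With copies added, the share was 2.85%, 6.95% and 7.20% in WT and 8.11%, 7.84%, 7.35% and 8.20% in Jag2sm, still without overlap. The total also held mitochondrial genes, which took 11.8% to 12.8% of counts in WT and 6.05% to 10.7% in Jag2sm. When mitochondrial genes and 18S rRNA were left out of the total, members with copies took 3.67%, 9.04% and 9.41% in WT and 9.63%, 10.05%, 9.31% and 10.39% in Jag2sm, so that Jag2sm 3 lay below WT 3 and the groups overlapped. Members alone, over the same total, took 1.31%, 3.08% and 3.13% in WT and 3.46%, 3.55%, 3.24% and 3.72% in Jag2sm, without overlap. A share over the members was given no test.

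**Figure D2:**
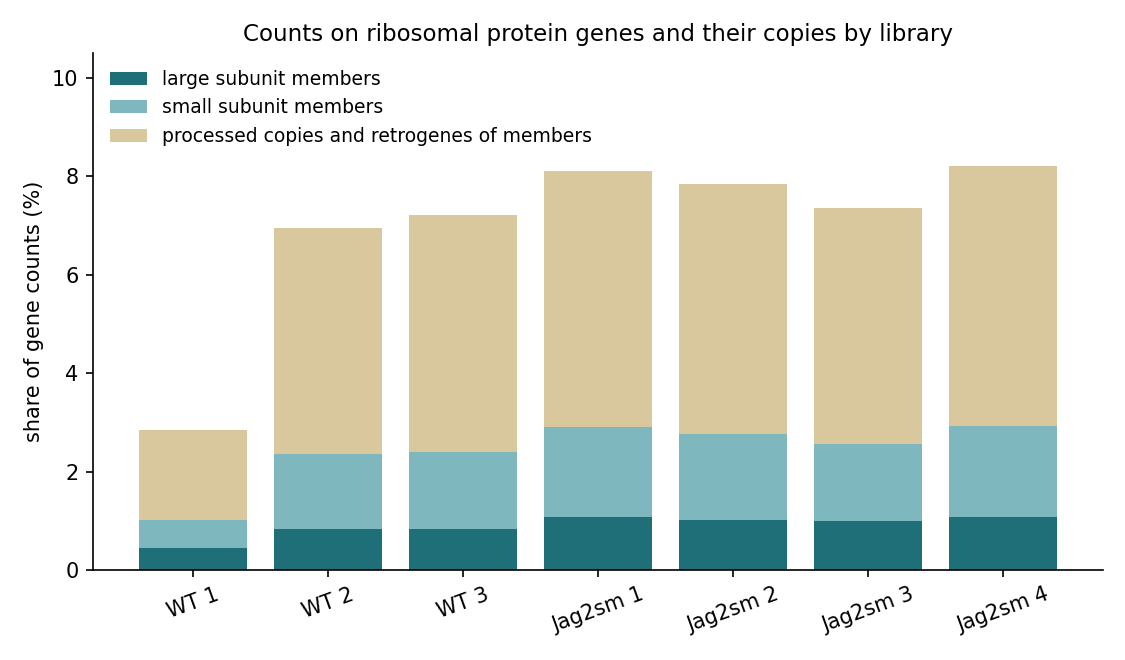
Share of gene counts (y axis, percent) in each of the 3 WT and 4 Jag2sm libraries on large subunit members, small subunit members and their processed copies, stacked. WT 1 reaches 2.85%, and the other 6 libraries lie between 6.95% and 8.20%.

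The test between genotypes was edgeR's quasi-likelihood test over 9489 genes, with Benjamini-Hochberg adjustment over all of them and a threshold of 0.05. It called 1 of the 75 tested members, Rpsa, where 6.26% of all genes tested were called (1.42% higher and 4.84% lower in Jag2sm). At an unadjusted p under 0.05 it found 5 members (6.67%), where the share over all genes was 19.7%. Of the tested members, 11 had all 4 Jag2sm libraries above all 3 WT libraries (14.7%, against 10.3% of all genes), and 0 had them all below, against 12.2% of all genes. A log2 fold change above 0 was found for 37 of 43 large subunit and 31 of 32 small subunit genes, together 90.7%, where 54% of all genes lay above 0. The median log2 fold change was 0.28 over the large subunit and 0.33 over the small subunit, beside 0.05 over all genes, and the members ranged from −1.73 (Rpl29) to 2.93 (Rpsa).

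WT 1 was the lowest library for 66 of the 75 tested members. The median deviation of the members from their own mean log2 CPM was −1.14 in WT 1, 0.15 in WT 2 and 0.16 in WT 3, and 0.20, 0.21, 0.25 and 0.27 in Jag2sm 1 to 4. The other 6 libraries thus lay close together. Between libraries of the same batch number the Jag2sm median exceeded the WT median by 1.33 in batch 1, 0.06 in batch 2 and 0.09 in batch 3. Refitted without WT 1, 46 of the 75 members lay above 0 (52.6% of all genes did), the medians were 0.14 for the large and 0.07 for the small subunit beside 0.03 for all genes, and Rpsa was again the only member called, with 5.8% of all genes called; 7 members had an unadjusted p under 0.05, where 20.2% of all genes did. Without WT 1, 11 members had all Jag2sm libraries above both WT libraries (14.7%, against 14.5% of all genes) and 4 had them all below (17.2% of all genes did). With the copies summed into each gene and 81 genes tested, 0 were called in edgeR, where 6.32% of all genes were, and 2 had an unadjusted p under 0.05, where 19.9% did. Of these sums 76 lay above 0, where 54.1% of all genes did, and the median was 0.30. Of them 7 had all Jag2sm libraries above all WT libraries, where 10.4% of all genes did. The same sums without WT 1 gave 40 of 81 above 0 (52.5% of all genes), with medians of 0.03 for the large and −0.03 for the small subunit beside 0.03 for all genes. The 18 tested members with under 10% of their counts on copies all lay above 0 with a median of 0.29, and without WT 1 their median was −0.02, with 8 of 18 above 0. Of the 46 tested members with over 50% of their counts on copies, 40 lay above 0 with a median of 0.29, and without WT 1 31 did, with a median of 0.19. The low depth of WT 1 and its many reads outside genes moved with its low level of ribosomal protein messages, and their part in it was not tested.

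**Figure D3:**
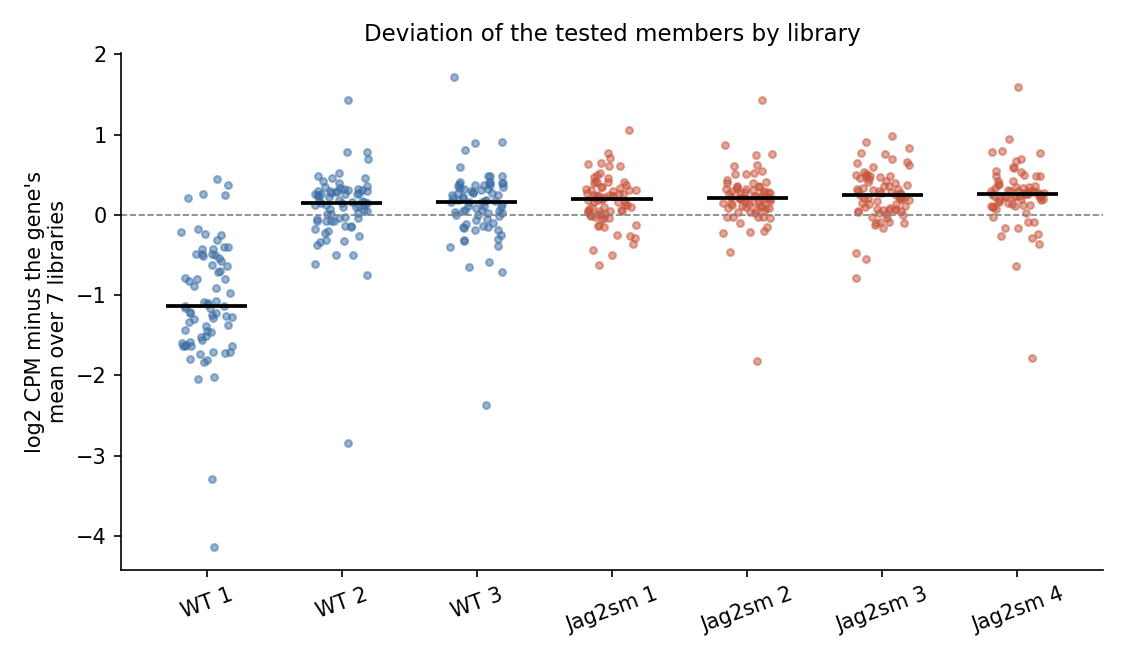
Deviation of each of the 75 tested members from its mean log2 CPM over the 7 libraries (y axis, log2), by library, with the median as a black bar. The median lies at −1.14 in WT 1 and between 0.15 and 0.27 in the other 6 libraries.

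**Figure D4:**
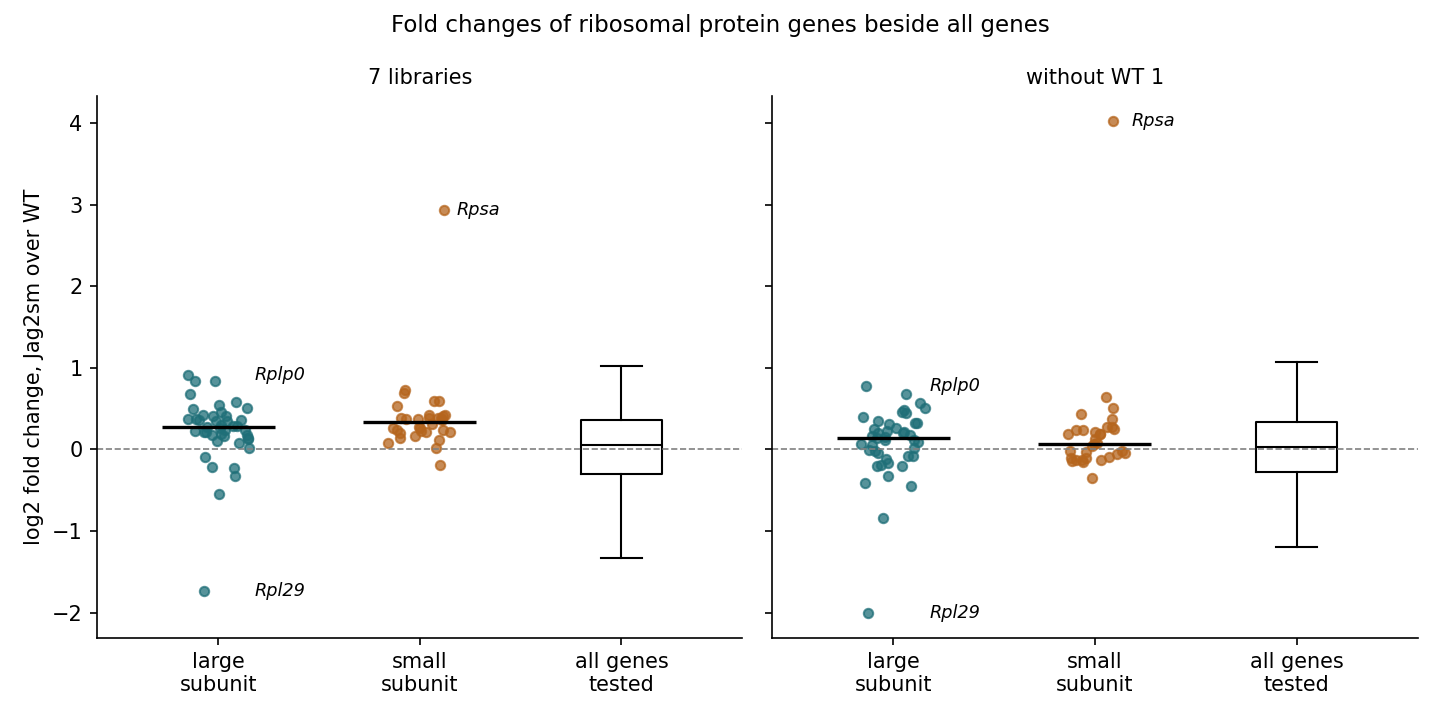
Log2 fold change of Jag2sm over WT (y axis) for each tested member, by subunit, with the median as a black bar, beside all genes tested (box, quartiles; whiskers, 5th to 95th percentile), with 7 libraries and without WT 1. The medians of the large and small subunit are 0.28 and 0.33 with 7 libraries and 0.14 and 0.07 without WT 1, while Rpsa and Rpl29 lie far from the rest in both.

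Rpsa encodes a protein of the small subunit that is also known as the laminin receptor precursor. Its level was 104, 9.05 and 13.3 CPM in WT 1 to 3 and 159.8, 207, 124 and 232 CPM in Jag2sm 1 to 4. All Jag2sm libraries lay above all WT libraries, but WT 1 lay much closer to Jag2sm 3 than to the other 2 WT libraries. WT libraries averaged 42.0 ± 53.5 CPM (SD, n = 3) and Jag2sm libraries 181 ± 47.9 CPM (SD, n = 4), and the log2 fold change was 2.93 ± 0.683 (SE; edgeR adjusted p = 0.0298; exact two-sided permutation p = 0.0286, which no result of 3 against 4 libraries can go below). Its copy Rpsa-ps10 held far more counts, at 951, 2349.6 and 2435 CPM in WT and 1834, 588, 1442 and 583 CPM in Jag2sm, and was lowest in Jag2sm 2 and 4. Rpsa thus took 9.84% of the counts of gene and copies in WT 1, 0.383% in WT 2 and 0.542% in WT 3, and 8.01%, 25.9%, 7.92% and 28.2% in Jag2sm 1 to 4. The sum of Rpsa and its copies was 1051, 2356 and 2452 CPM in WT and 1994, 799.6, 1571 and 821 CPM in Jag2sm, with overlapping groups and a log2 fold change of −0.60 ± 0.406 (SE; edgeR adjusted p = 0.458), the opposite sign to the gene alone, and −0.91 without WT 1 (adjusted p = 0.188). The call on Rpsa alone was kept without WT 1 (log2 fold change 4.02, edgeR adjusted p = 0.00178) and without Jag2sm 3, and was lost when WT 2, WT 3, Jag2sm 1, Jag2sm 2 or Jag2sm 4 was left out (adjusted p = 0.147, 0.191, 0.0517, 0.0857 and 0.0509), in a robust fit (0.0567) and in counts thinned to the depth of WT 1 (0.121). Rpsa also overlaps exons of Gm24044 on its own strand and of Gm5922 on the other.

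The stalk of the large subunit, which recruits the elongation factors, is built from Rplp0 as its base and from Rplp1 and Rplp2. Rplp0 had the highest fold change of the large subunit: it stood at 294, 407 and 387 CPM in WT and at 539, 789, 528 and 892 CPM in Jag2sm, without overlap, with the highest values in Jag2sm 2 and 4 (log2 fold change 0.91 ± 0.272 (SE), edgeR adjusted p = 0.0785, exact permutation p = 0.0286). It passed the threshold in DESeq2 (adjusted p = 0.0116) and in edgeR on library size alone (0.0384). DESeq2 called 2 members and 788 of 25181 genes (3.13%). That total includes genes with counts too low for the main edgeR test, which called 594 of 9489, so these shares are not comparable. The copy Gm8730 of Rplp0 stood at 859, 1331 and 1261 CPM in WT and at 1652, 535, 1462 and 539 CPM in Jag2sm. Jag2sm 2 and 4 were again the exception, here as the lowest. Rplp0 took 23.4% to 25.5% of the counts of gene and copies in the WT libraries and 24.6% and 26.4% in Jag2sm 1 and 3, but 59.5% and 62.3% in Jag2sm 2 and 4. The 95% Wilson intervals, which cover counting error only, were 57.3% to 61.7% in Jag2sm 2 and 22.5% to 26.8% in Jag2sm 1. The sum of gene and copies had a log2 fold change of 0.20 ± 0.286 (SE; edgeR adjusted p = 0.762).

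Rplp1 stood at 334, 723 and 717 CPM in WT and at 1236, 776, 1421 and 868 CPM in Jag2sm, without overlap, and here Jag2sm 1 and 3 were the higher ones (log2 fold change 0.84 ± 0.337 (SE), edgeR adjusted p = 0.190, exact permutation p = 0.0571). Rplp2, with no counted copies, stood at 57.6, 186 and 177 CPM in WT and at 116, 163, 183 and 170.4 CPM in Jag2sm, with a log2 fold change of 0.08 and WT 2 above all Jag2sm libraries. The 3 stalk genes thus did not share 1 pattern over the libraries.

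Rpl29 had the lowest fold change of all tested members. It encodes a small protein of the large subunit and stood at 34.6, 120.2 and 148 CPM in WT and at 62.2, 11.1, 53.2 and 11.4 CPM in Jag2sm. The groups overlapped because of WT 1, and Jag2sm 2 and 4 were the lowest libraries (log2 fold change −1.73 ± 0.576 (SE), edgeR adjusted p = 0.112, exact permutation p = 0.171). Without a filter on low counts edgeR called Rpl29 lower (adjusted p = 3.9e-08), in a fit that called many more genes over the whole table. The copy Gm8210 showed the reverse, with 17.3, 0 and 0 CPM in WT and 46.7, 82.9, 58.1 and 78.3 CPM in Jag2sm. It was the only one of 100 tested copies of members to be called, where 6.26% of all genes were (higher; edgeR adjusted p = 0.00539). Gm8210 passed the filter on low counts through the Jag2sm libraries, where it was high, so its call adds no evidence beyond these levels. It had 3 counts over the WT libraries, all in WT 1, and 367 over the Jag2sm libraries. Relative to the TMM-normalized library sizes this was a ratio of 62.7 (exact 95% interval for counting error 21.3 to 306). The ratio pools libraries of unequal depth and rests on WT 1 for its WT counts. The group means were 5.76 CPM in WT and 66.5 CPM in Jag2sm. Its 0 counts in WT 2 and WT 3 allow a level of up to 1.81 and 2.59 CPM of gene counts. Rpl29 and all its copies together had a log2 fold change of −0.07 ± 0.272 (SE; edgeR adjusted p = 0.936), with 57.4, 137 and 161 CPM in WT and 129, 113, 132 and 110.1 CPM in Jag2sm. For Rpsa, Rplp0 and Rpl29 alike, the division of counts between gene and copy in Jag2sm 2 resembled that in Jag2sm 4 more than that in the other libraries. The cause of this likeness was not tested.

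**Figure D5:**
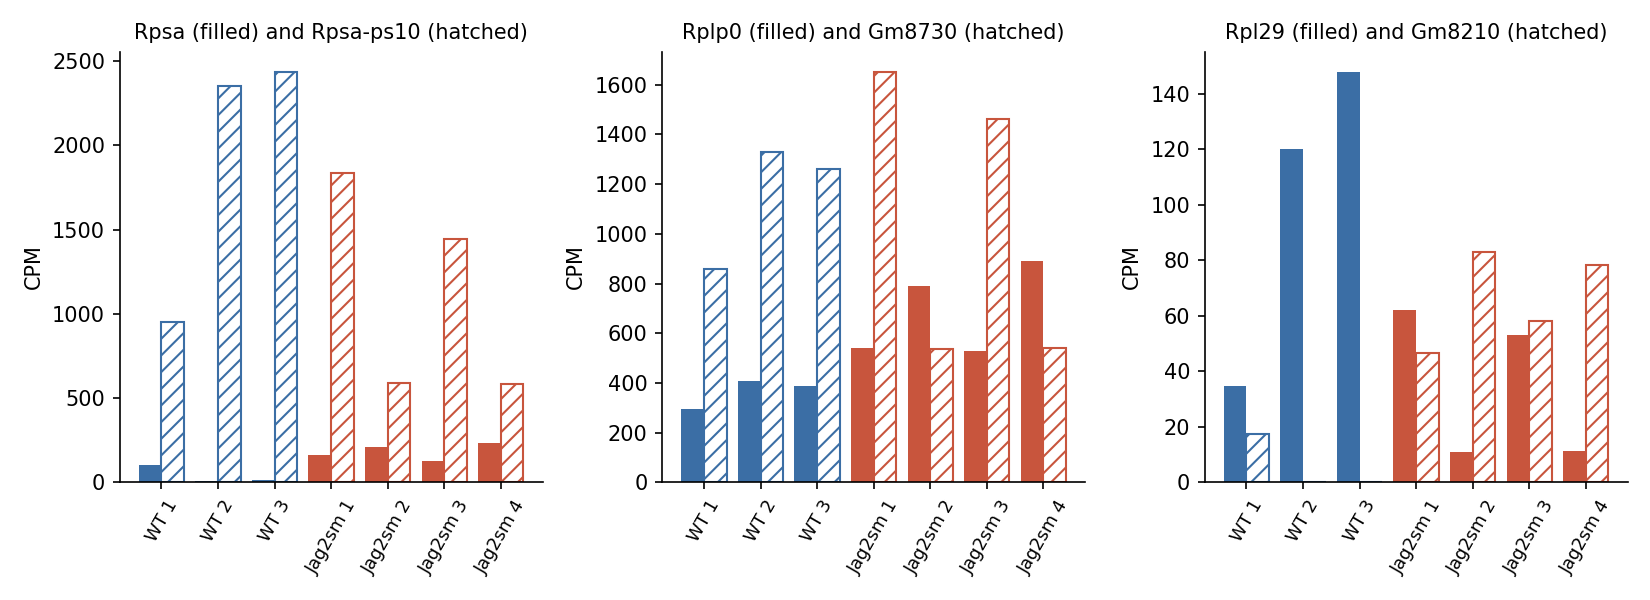
CPM (y axis) of Rpsa, Rplp0 and Rpl29 (filled bars) and of 1 processed copy of each (hatched bars) in each library, WT in blue and Jag2sm in red. In Jag2sm 2 and 4 the copies Rpsa-ps10 and Gm8730 stand at 535 to 588 CPM, against 859 CPM or more in every other library, while Gm8210 is at 0 in WT 2 and WT 3.

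The other large subunit genes at the ends of the range had smaller changes. Rpl37 (log2 fold change 0.84, edgeR adjusted p = 0.253) and Rpl13a, which also acts in a complex that restrains translation of inflammatory messages (0.68, adjusted p = 0.277), had higher means in Jag2sm, and both groups overlapped: Rpl13a stood at 23.1, 63.3 and 95.8 CPM in WT and at 130.1, 122, 83.8 and 103 CPM in Jag2sm. Rpl26, known for binding the Trp53 message, stood at 17.3, 100.2 and 108 CPM in WT and at 67.9, 70.5, 32.5 and 67.7 CPM in Jag2sm (−0.55, adjusted p = 0.492), while its copy Gm15772, with 594, 1081 and 1089 CPM in WT and 1292, 1505, 1637 and 1508 CPM in Jag2sm, lay higher in all 4 Jag2sm libraries (0.68, adjusted p = 0.199). Rpl28 (−0.33) and Rpl9 (−0.22) completed the 4 lowest. With copies summed Rpl26, Rpl28 and Rpl9 lay above 0 (0.63, 0.45 and 0.18). Per kilobase of the longest coding transcript, the highest mean levels among large subunit genes, from counts on the gene without its copies, were those of Rpl8 (1542 CPM per kb), Rplp1 (1525) and Rpl36a (968). Rpl8, which lies at the heart of the large subunit near its catalytic center, stood at 697, 1544 and 1653 CPM in WT and at 1825, 1949, 1366 and 2312 CPM in Jag2sm (log2 fold change 0.51 ± 0.337 (SE), adjusted p = 0.442). WT 1 was its lowest library, and Jag2sm 3 lay below WT 2 and WT 3.

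Among the small subunit genes described here, Rps21 (2117 CPM per kb) and Rps14 (1796) had high levels per kilobase. Rps21 stood at 311, 1231 and 1299 CPM in WT and at 1063, 1247, 1268 and 1447 CPM in Jag2sm, so that WT 1 was lowest and Jag2sm 1 next (log2 fold change 0.39, adjusted p = 0.659). Rps14 (0.31), whose loss is linked to a form of anemia, had the same lowest library, and without WT 1 both lay just below 0 (−0.02 and −0.04). Rps27l and Rps3a1 were also near the top of the range of fold changes. Rps3a1 stood at 11.5, 34.3 and 37.0 CPM in WT and at 56.6, 44.9, 48.8 and 44.0 CPM in Jag2sm, without overlap (0.60, edgeR adjusted p = 0.262, exact permutation p = 0.0286), but 93.6% of the counts of gene and copies lay on copies and the sum had a log2 fold change of −0.02. At the low end were Rps27a (−0.20, or 0.21 with copies summed), which is made as a fusion with ubiquitin, Rps25 (0.02), Rps16 (0.08) and Rps7 (0.11). Rps6, the protein phosphorylated by the S6 kinases, stood at 46.1, 49.8 and 46.5 CPM in WT and 48.1, 63.6, 59.6 and 56.2 CPM in Jag2sm (0.26 ± 0.201 (SE), adjusted p = 0.527). Of the counts of gene and copies 95.5% lay on copies, and the sum stood at 494, 1156 and 1228 CPM in WT and 1365, 1313, 1194 and 1312 CPM in Jag2sm, with WT 1 far lowest and overlapping groups (0.42, adjusted p = 0.505). Rps12 and Rps19, the latter mutated in Diamond-Blackfan anemia, were also without overlap, with log2 fold changes of 0.54 (adjusted p = 0.216) and 0.59 (adjusted p = 0.387). With copies summed the groups overlapped for Rps12 (0.43), of whose counts 88.8% lay on copies, and did not for Rps19 (0.58).

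Some ribosomal proteins have a second gene with introns, often with its own tissue pattern. Rps27l, a Trp53-induced relative of Rps27, had 7044 counts and almost none on copies. It stood at 231, 750.4 and 712 CPM in WT and at 1032, 956, 928 and 893 CPM in Jag2sm, without overlap (log2 fold change 0.73 ± 0.355 (SE), edgeR adjusted p = 0.291, exact permutation p = 0.0286) and 0.37 without WT 1. Rps27 stood at only 5.76 to 14.2 CPM, with a log2 fold change of 0.16, beside far higher counts on Rps27rt, whose log2 fold change was 0.12. Rpl3l, a form of Rpl3 found in heart and adult skeletal muscle, had 4 counts over all libraries (WT 2, WT 3 and Jag2sm 4). Rpl3 alone stood at 20.9 to 51.4 CPM. Of the counts of Rpl3 and its copies 97.2% lay on copies, and their sum stood at 855.5 to 1567 CPM. Rpl22l1 had 13 counts and its copies 392, beside 7255 counts for Rpl22 and 12 for the copies of Rpl22. The log2 fold change of Rpl22 was 0.29 (edgeR adjusted p = 0.661). Rpl7l1, which acts in ribosome assembly, and Rpl7 differed little between groups (0.24 and 0.23). The 7 members with too few counts for a test were Rpl3l, Rpl22l1, Rpl23a, Rpl24, Rpl30, Rpl35 and Rps10. All but Rpl3l could be tested with their copies, and none was called. Rps19bp1 had a log2 fold change of 0.43 (adjusted p = 0.434).

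Genes that work with the ribosome gave few calls. Their counts are to be read against all genes tested, of which 6.26% were called, 19.7% had an unadjusted p under 0.05 and 54% lay above 0. Rack1, a scaffold on the small subunit, had a log2 fold change of 0.25 (edgeR adjusted p = 0.649). Of 38 ribosome biogenesis genes 0 were called (2 had an unadjusted p under 0.05), 33 lay above 0 and the median was 0.33, or 0.19 without WT 1. Within them Nop56, a core protein of the box C/D particles, stood at 74.9, 131 and 135 CPM in WT and 133, 209, 216 and 212 CPM in Jag2sm (0.70, edgeR adjusted p = 0.155). Rrp12 stood at 156, 53.6 and 55.0 CPM in WT and 24.0, 33.2, 46.8 and 30.2 CPM in Jag2sm (−1.12, edgeR adjusted p = 0.119). With no filter on low counts, where many more genes were called, Rrp12 had an edgeR adjusted p of 0.00786. The 9 tested hosts of small nucleolar RNAs all lay above 0 with a median of 0.48, or 0.40 without WT 1, and 0 were called (4 had an unadjusted p under 0.05). Snhg1 was the lowest of them (0.30) and Snhg12 the highest. Snhg12 stood at 5.76, 36.2 and 26.6 CPM in WT and 49.5, 55.3, 46.8 and 50.5 CPM in Jag2sm, without overlap (0.85, adjusted p = 0.147). Initiation factors had 0 of 29 called with a median of 0.15, or 0.02 without WT 1 (Eif4b 0.51 and Eif4a1 −0.81 at the ends), and elongation factors 0 of 6 with a median of 0.004 (Eef1d 0.48 and Eef2 −0.42). The proteins of the mitochondrial ribosome, which is built separately, had 0 of 74 called (4 with an unadjusted p under 0.05) and a median of 0.03, or −0.09 without WT 1; Mrps18c (0.87) and Mrpl27 (−0.67) were at the ends. Initiation and elongation factors had 0 genes with an unadjusted p under 0.05.

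Among the related genes 2 rose. Myc, the transcription factor that drives ribosomal protein and biogenesis genes, stood at 74.9, 68.5 and 53.1 CPM in WT and at 107, 162, 141 and 112 CPM in Jag2sm, without overlap (log2 fold change 1.04 ± 0.236 (SE), edgeR adjusted p = 0.0270, exact permutation p = 0.0286). It was the 1 gene called among 19 tested regulators of ribosome production, whose median was −0.04 and of which 7 had an unadjusted p under 0.05 (19.7% of all genes did, and 6.26% were called). Ccng1, a Trp53-induced cyclin gene listed with the other TOP messages, stood at 167, 295 and 247 CPM in WT and at 542, 460.2, 497 and 391 CPM in Jag2sm, again without overlap (0.97 ± 0.249 (SE), adjusted p = 0.0451), 1 of 10 in its list, of which 4 had an unadjusted p under 0.05 and the median was 0.24. With the batch number as a replicate block neither was called (adjusted p = 0.0602 for Myc and 0.105 for Ccng1). The call on Myc was also lost without WT 2, WT 3 or Jag2sm 2 (edgeR adjusted p = 0.0871, 0.165 and 0.0881). That on Ccng1 was lost when any library but WT 1 was left out (adjusted p = 0.0545 to 0.171) and in thinned counts (0.0691).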

How the data were processed

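RNA of 3 WT and 4 Jag2sm MuSC samples was read as nanopore direct cDNA, with barcoded libraries pooled on PromethION flow cells. The authors called bases with dorado, kept reads with a q-score of at least 7, aligned them to GRCm39 with minimap2 2.17 and deposited raw counts per Ensembl gene from HTSeq, unnormalized; strand and multi-mapping settings are not given in the sources used here. Symbols came from GENCODE M39 (56017 of 56748 identifiers matched). Rows that name no gene (reads outside genes, ambiguous, low-quality or not aligned; 20.8% to 45.1% of aligned reads were outside genes) were left out of library sizes.

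Groups came from the labels. Counts were fitted with edgeR 4.0.16 (R 4.3.3; quasi-likelihood, TMM, filterByExpr with a minimum count of 10 and total of 15, prior count 2), with Benjamini-Hochberg adjustment over all genes tested. For single genes a two-sided exact permutation test on log2 CPM is given beside it. Processed copies were found with blastn 2.17.0 (at least 80% identity over 70% of a transcript of at least 100 bases) and exon overlaps with bedtools 2.31.1. Alternatives used DESeq2 1.42.0, limma-voom 3.58.1, other filters, scalings, length and GC trends, thinned counts and each library left out. The fits were tested on simulated data. The labels give WT and Jag2sm libraries 1 to 3 shared batch numbers. The main fit did not pair libraries by them, and only the alternatives with a replicate block did. Same-numbered libraries 1 to 3 correlated in their deviations across genes with r = 0.0740, 0.0144 and 0.0539. The first of these was the highest of all pairs, and the others lay below WT 2 with Jag2sm 3 (0.0645). Named were called members, the 4 highest and 4 lowest fold changes and the 3 highest levels per kb of each subunit, paralog pairs, stalk genes, Rps6, Rps27a and Rps19bp1, and from each related list the called genes or else the ends of its range; Rps12, Rps19, Rpl4, Rps20 and the copies were added after their values were seen. The results of some of these genes are not reported here. The members and lists were chosen with earlier results of these data known. Intervals are 95% Wilson intervals unless named exact, and a 0 was bounded by 3 counts.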

Additional observations from a re-analysis of the deposited data

Results flagged for a closer look

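Some single libraries lay far from the others of the Jag2sm group by Dixon's criterion, which marks about 1 in 20 groups by chance. How many groups were screened is not given here, so the flags cannot be set against that rate. Jag2sm 3 was low for Rpl26 (32.5 CPM). Jag2sm 4 was the only Jag2sm library with a count on Rpl3l (0.815 CPM, from 1 count). Jag2sm 1 was low for Nop56 (133 CPM), for all mitochondrial genes together (6.05% of gene counts) and for the mitochondrial ribosomal RNAs mt-Rnr1 and mt-Rnr2 (4.68%). Outside the gene counts, the share of reads listed as not aligned was 50.8% in Jag2sm 1, 46.7% in Jag2sm 2 and 46.0% in Jag2sm 4, above the 2.44% to 3.24% of the WT libraries and the 3.07% of Jag2sm 3. Their part in the results was not tested.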

How the results depend on the processing

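Over 25 alternatives, 904 of 967 log2 fold changes of 40 named genes kept their direction and side of the threshold, 23 lost and 4 gained a call, and 36, in 15 genes, changed direction. None of the 36 passed the threshold, and Rpsa was the only gene among the 15 called with all libraries and copies apart. With copies summed the changed values were −0.60 for Rpsa, 0.63 for Rpl26, 0.45 for Rpl28, 0.18 for Rpl9, 0.21 for Rps27a, −0.043 for Rps25 and −0.024 for Rps3a1. With copies summed and WT 1 left out they were −0.91 for Rpsa, 0.37 for Rpl26, 0.087 for Rpl28, −0.062 for Rpl36a, −0.26 for Rps25, −0.22 for Rps7, −0.13 for Rps3a1, −0.022 for Rps21, −0.026 for Rps14, −0.015 for Rpl22, −0.28 for Rps27 and −0.20 for Rplp2, and the small subunit median was −0.033. With the length trend removed they were −0.011 for Rps25 and −0.041 for Rplp2, and in limma-voom −0.070 for Rps25. With 1 library left out, Rpl9 ranged from −0.33 to 0.086, Rpl36a from −0.010 to 0.57, Rps25 from −0.45 to 0.17, Rps16 from −0.13 to 0.28, Rps7 from −0.10 to 0.43, Rps21 from −0.021 to 0.66, Rps14 from −0.035 to 0.55, Rpl22 from −0.018 to 0.54, Rps27 from −0.040 to 0.55 and Rplp2 from −0.20 to 0.32; the lowest value came without WT 1 except for Rps25 (without Jag2sm 3) and Rps27 (without WT 2). The genes called across the whole table (594) numbered 1248 with no filter on low counts, 274 with at least 10 counts in every library, 256 in thinned counts and 251 to 616 with 1 library left out (343 without WT 2, 341 without WT 3 and 251 without Jag2sm 2). Members called (1) numbered 2 on library size alone, in DESeq2 and with no filter. They numbered 0 in the robust fit, in thinned counts, with copies summed (with and without WT 1) and without members that overlap another exon, and 0 to 1 with 1 library left out. Calls in the related lists (2) numbered 4 in DESeq2, limma-voom and with the length trend removed, 5 with no filter and 0 to 3 with 1 library left out. The cause of these differences was not tested. With the replicate block 565 genes, 1 member and 0 genes of the related lists were called, also 0 with the block and the length or GC trend removed, and it changed no other named call. With 1 library left out the median log2 fold change was 0.14 to 0.40 for the large and 0.07 to 0.54 for the small subunit. On library size alone the median log2 fold change of large subunit genes was 0.44, beside a median log2 fold change of all genes that moved from 0.05 to 0.21. The mean share of gene counts in WT (1.93%) was 4.11% with copies named after members and 5.67% with matched copies. In Jag2sm (2.79%) it was 5.73% and 7.88%, 3.08% without mitochondrial genes in the total and 3.49% without these and ribosomal RNA. Summing copies and leaving out ribosomal RNA were chosen after seeing the data. Depth limits WT 1 most, where 0 counts allow up to 15.97 CPM, and members with few counts.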
